A study of Mus musculus with 435 samples.

Results

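Cells of the E11.5 XY mouse gonad with high Sox9 were set against cells of the same captures without it. Each cell carried NR5A1-eGFP, a green reporter of Nr5a1 that was also the sorting gate, on a mixed strain background, and was sorted as live and green, captured on a small microfluidic chip and sequenced as 1 library. The classes were chosen by the measured Sox9 value within each of the 2 captures: the Sox9-high cells, which are the third of cells with the highest Sox9, and the Sox9-negative cells, with Sox9 below 1 RPKM (reads scaled by transcript length and by library size, the unit of the deposited values). There were 31 Sox9-high cells (17 and 14 in the first and second capture) and 38 Sox9-negative cells (13 and 25), out of 93 E11.5 cells with values and 400 in the series. The labels give a sequencing depth of 10 M reads, as pairs of 100 bases, for each E11.5 library. Another 22 cells of the first and 2 of the second capture lay between the classes. The rest of the series is 7 captures of the same kind of cells, 1 from E10.5 and 2 each from E12.5, E13.5 and, last, E16.5. How many embryos gave each capture is not given in the sources used here, and p-values measure only the spread between captures.

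SOX9 is the transcription factor that turns bipotential supporting cells of the XY gonad into Sertoli cells. It is switched on by SRY, encoded on the Y chromosome, together with NR5A1, and is held on by its own activity and by the secreted factor FGF9, while WNT4 and RSPO1 act against it on the ovarian path. In the mouse the Sry pulse and the onset of Sox9 fall around the stage studied here, before testis cords form and before the Sertoli hormone AMH is abundant.

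Sox9 chose the classes, so its values are a description. In the first capture Sox9 ran from 37.6 to 380 RPKM in Sox9-high cells, with a median of 75.6, and from 0 to 0.62 in Sox9-negative cells. In the second capture it ran from 5.97 to 1017 RPKM in Sox9-high cells, with a median of 292, and from 0 to 0.56 in Sox9-negative cells. Sox9 was listed at exactly 0 in 9 of 13 and 15 of 25 Sox9-negative cells. The cells just below the Sox9-high class held 32.2 and 5.35 RPKM in the first and second capture, and those just above the Sox9-negative class 1.20 and 2.65 RPKM. Sox9 was thus graded in the first capture. In the second, the Sox9-high class itself took in cells at 5.97, 8.91, 14.1 and 14.2 RPKM. These lie within the range of the cells between the classes in the first capture, so the Sox9-high class does not mean the same Sox9 level in both.

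**Figure D1:**
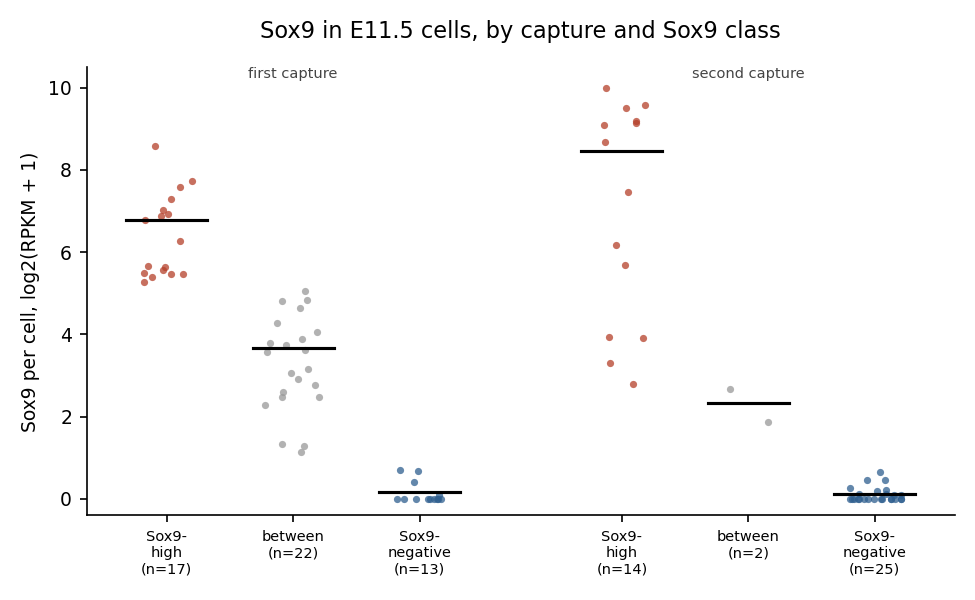
Sox9 in each E11.5 cell on a log2(RPKM + 1) axis, by capture and class, with Sox9-high cells at the left, cells between the classes in the middle and Sox9-negative cells at the right of each capture; bars are log2(mean RPKM + 1). The 22 cells between the classes in the first capture form a gradient, against 2 such cells in the second, where the Sox9-high class reaches down to 5.97 RPKM.

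The classes were similar in depth. Sox9-high cells had a median of 5135 and 5941.5 detected genes in the first and second capture, against 4679 and 5426 in Sox9-negative cells. The smallest step of the values implied a median of 2.14 and 2.85 M counted reads per Sox9-high cell, against 2.02 and 2.69 M per Sox9-negative cell. The median of detected genes was thus somewhat higher in Sox9-high cells of both E11.5 captures. Without the 25% of cells with the fewest genes in each capture, the 4 genes called below were called again, with log2 differences of 3.66 for Akr1cl, 4.12 for Aldh1a1, 3.15 for Rnf181 and 1.46 for eGFP. The last number in the names of the deposited columns took 8 values in each capture, and cells of both classes were found under 7 of them.

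Gonadal somatic markers were found in both classes, less evenly in Sox9-negative cells. Of the 5 markers Nr5a1, Gata4, Wt1, Lhx9 and eGFP, the last of them the sorting gate, the median Sox9-high cell had 4 at 1 RPKM or more in both captures, against 3 and 4 in the median Sox9-negative cell. At least 3 were found in 16 of 17 and 14 of 14 Sox9-high cells, against 8 of 13 and 19 of 25 Sox9-negative cells. In each capture 1 Sox9-negative cell had none. Sertoli markers were sparse. Of 10, the median Sox9-high cell had 0 in the first capture and 2 in the second, against 0 in both for Sox9-negative cells, and 3 or more were found in 3 of 17 and 6 of 14 Sox9-high cells and in no Sox9-negative cell. Interstitial markers were common to both: of 7, the median Sox9-high cell had 4 and 2, and the median Sox9-negative cell 4 and 4. The Sox9-high cells are thus called by their rule and not by a cell type.

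Sequences around the starts of the 3 mouse genes that passed the test below are shown first, since these genes carry the main finding (eGFP, which also passed, is a transgene). Each line gives 250 bases before to 50 after a start, from RefSeq on GRCm38.p6, in the direction of the gene. Capitals mark ACAAAG, a core that HMG-box factors of the SOX and SRY family can bind, searched on both strands together with AACAAT, which was found in none of the 3. Akr1cl is shown at chr1:65032710-65033009 on the minus strand, Aldh1a1 at chr19:20492333-20492632 on the plus strand (its upstream start of 2 in RefSeq), and Rnf181 at chr6:72366923-72367222 on the minus strand (its upstream start of 2).
Akr1cl: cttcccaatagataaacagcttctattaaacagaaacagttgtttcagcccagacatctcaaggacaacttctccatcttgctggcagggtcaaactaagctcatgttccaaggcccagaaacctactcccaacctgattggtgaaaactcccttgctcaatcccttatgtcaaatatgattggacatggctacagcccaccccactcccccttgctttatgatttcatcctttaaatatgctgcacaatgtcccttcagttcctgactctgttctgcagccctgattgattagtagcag
Aldh1a1: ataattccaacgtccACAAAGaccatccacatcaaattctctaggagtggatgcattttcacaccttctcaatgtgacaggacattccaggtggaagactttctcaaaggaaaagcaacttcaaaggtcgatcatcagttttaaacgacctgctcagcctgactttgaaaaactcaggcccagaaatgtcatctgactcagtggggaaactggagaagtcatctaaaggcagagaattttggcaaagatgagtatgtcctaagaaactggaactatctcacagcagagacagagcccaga
Rnf181: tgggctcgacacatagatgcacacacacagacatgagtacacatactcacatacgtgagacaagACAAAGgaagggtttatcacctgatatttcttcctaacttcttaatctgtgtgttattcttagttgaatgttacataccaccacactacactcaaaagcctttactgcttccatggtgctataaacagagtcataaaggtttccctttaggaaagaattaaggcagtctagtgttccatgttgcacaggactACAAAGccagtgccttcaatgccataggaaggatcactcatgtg
Akr1cl held no ACAAAG in this window, Aldh1a1 held 1 copy and Rnf181 held 2. The other starts of Aldh1a1 and Rnf181 held none. Of 32851 RefSeq promoter windows of this length, 18.7% held ACAAAG and 10.7% held AACAAT, so a match is common and is a description of letters only.

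In all, 4 genes were higher in Sox9-high cells and none was lower among 9667 genes tested, with Sox9 itself left out. They were Akr1cl, Aldh1a1, Rnf181 and eGFP. The test was limma's moderated test on log2(mean RPKM + 1) of each class in each capture, paired by capture, with Benjamini-Hochberg adjustment over all genes. Its spread came from the captures of E11.5, E13.5 and E16.5 together. E10.5 and E12.5 entered with 1 capture each and so added no spread. The moderated test also draws the spread of each gene towards that of other genes. This took 3 residual degrees of freedom to a median of 8.73 in total. The SE given with each difference comes from this moderated spread. Genes called higher made up 0.0414% of those tested and genes called lower 0%. At an unadjusted p under 0.05, 416 genes (4.3%) were higher and 300 (3.1%) were lower. With 2 E11.5 captures, a gene that missed the threshold is not shown to be alike in the classes.

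Akr1cl, an aldo-keto reductase gene (ENSMUSG00000025955.13, chr1:65012689-65032759, minus strand, GRCm38), averaged 195 and 376 RPKM in Sox9-high cells of the first and second capture, against 15 and 34.5 RPKM in Sox9-negative cells. It reached 1 RPKM in 18 of 31 Sox9-high cells and in 11 of 38 Sox9-negative cells. The highest cell held 32.8% and 20.2% of the class total in Sox9-high cells and 43.6% and 28% in Sox9-negative cells. Both class means of Sox9-high cells lay above both of Sox9-negative cells. The difference over the 2 E11.5 captures was 3.51 ± 0.35 on the log2 scale (moderated SE of the fit). This is 11.4-fold on the fitted scale (limma adjusted p = 0.0165).

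Aldh1a1, which makes retinoic acid from retinaldehyde (ENSMUSG00000053279.8, chr19:20492715-20643465, plus strand), averaged 17.7 and 74.3 RPKM in Sox9-high cells, against 0.29 and 2.46 RPKM in Sox9-negative cells. In all, 14 of the 31 Sox9-high cells and 3 of 38 Sox9-negative cells reached 1 RPKM. The gene rose by 4.15 ± 0.44 on the log2 scale, or 17.7-fold (limma adjusted p = 0.017), the largest difference of the 4. In the first capture 71% of the Sox9-high total came from 1 cell, so its mean there rests on few cells.

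Rnf181, a RING-finger ubiquitin ligase gene (ENSMUSG00000055850.12, chr6:72359714-72366956, minus strand), averaged 168 and 224 RPKM in Sox9-high cells, against 14.1 and 27.8 RPKM in Sox9-negative cells. It was the called gene that separated cells most often: 27 of 31 Sox9-high cells reached 1 RPKM, against 13 of 38 Sox9-negative cells. Median cells held 94.9 and 137 RPKM in the Sox9-high class, against 0 and 0.21 RPKM in the Sox9-negative class. The gene rose by 3.22 ± 0.33 on the log2 scale, or 9.34-fold (adjusted p = 0.0165).

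eGFP, the reporter by which the cells were sorted, averaged 2166 and 5875 RPKM in Sox9-high cells, against 804 and 1930 RPKM in Sox9-negative cells. All 31 Sox9-high cells and 33 of 38 Sox9-negative cells reached 1 RPKM. It rose by 1.52 ± 0.14 on the log2 scale, or 2.86-fold (adjusted p = 0.0165). Nr5a1 itself, the nuclear receptor gene that the reporter is named for, averaged 67.4 and 102.3 RPKM in Sox9-high cells, against 29.5 and 33.6 RPKM in Sox9-negative cells, and did not pass (1.37 ± 0.52, adjusted p = 0.607).

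**Figure D2:**
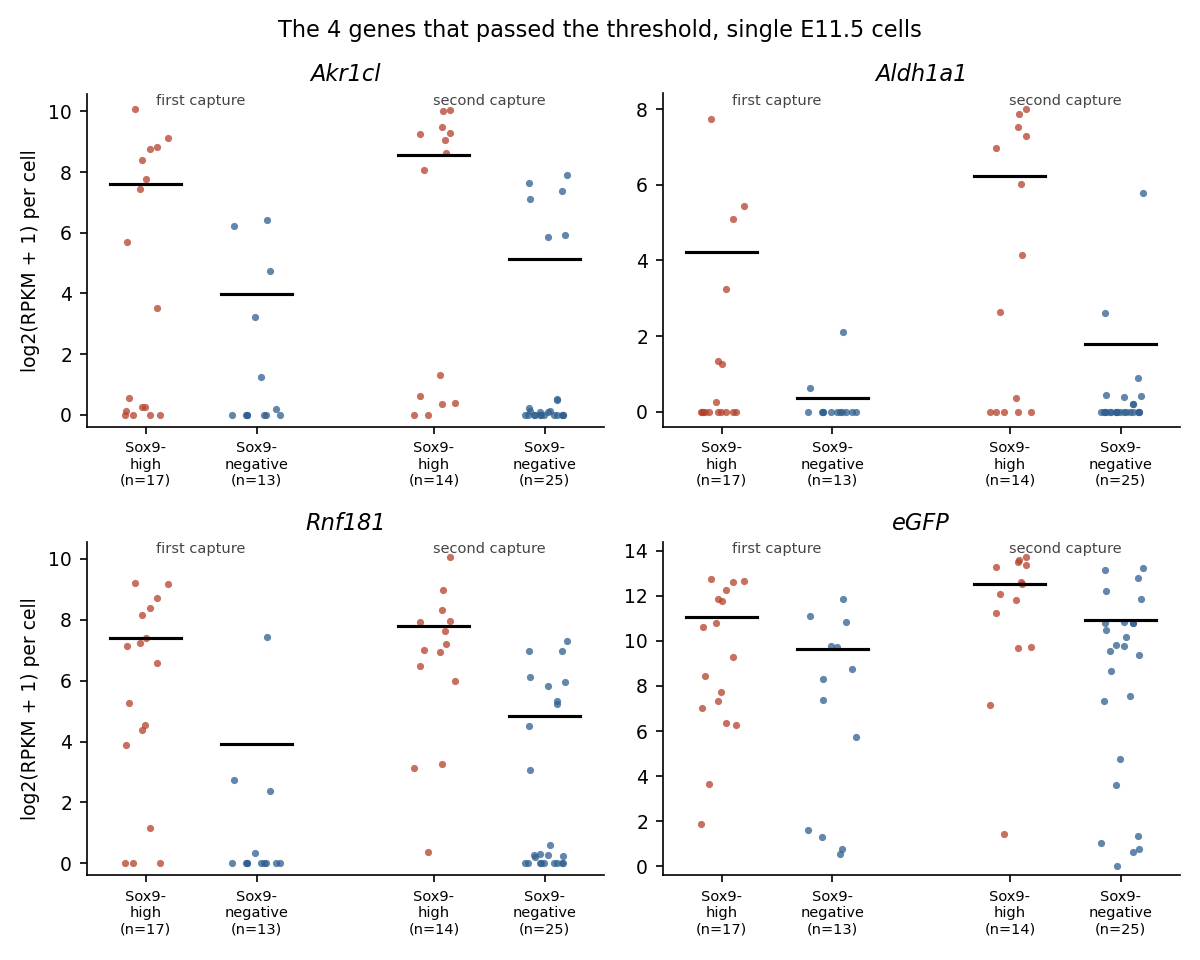
Each point is 1 E11.5 cell on a log2(RPKM + 1) axis, Sox9-high left and Sox9-negative right in each capture, for the 4 genes that passed the threshold; bars are log2(mean RPKM + 1). Rnf181 is above 1 RPKM in 14 of 17 and 13 of 14 Sox9-high cells, against 3 of 13 and 10 of 25 Sox9-negative cells.

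The calls of these 4 genes were lost under several alternatives in which their differences kept their sign. By limma, no gene passed when the highest cell of each class was left out gene by gene (769 at an unadjusted p under 0.05), with log2 differences of 3.69 for Akr1cl, 4.09 for Aldh1a1, 4.52 for Rnf181 and 1.72 for eGFP. None passed when the 25 E11.5 cells with at least 2 markers of another cell type, and such cells at other stages, were left out (601 at an unadjusted p under 0.05), with differences of 2.97, 2.99, 4.61 and 1.48 in the same order. None passed without the second E11.5 capture (769 at an unadjusted p under 0.05), and Egr1, lower, was the single call without the first. The differences in 1 E11.5 capture alone were 3.41 and 3.62 for Akr1cl, 4.44 and 3.85 for Aldh1a1, 2.96 and 3.48 for Rnf181 and 1.61 and 1.43 for eGFP without the first and without the second capture. Dropping either E13.5 capture left the E11.5 differences as they were and took the residual degrees of freedom to 2, and no gene passed (521 and 527 at an unadjusted p under 0.05). Dropping either E16.5 capture also left 2 residual degrees of freedom, and gave 11 or 12 calls. The 4 differences were positive in each of the 19 alternatives.

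Cells with markers of other cell types were found in both classes. At least 2 markers of 1 such type were found in 4 of 17 and 4 of 14 Sox9-high cells, against 3 of 13 and 6 of 25 Sox9-negative cells. Of 14 germ cell markers, 6 were listed at 0 in every E11.5 cell, Dazl and Ddx4 among them, and the macrophage genes C1qa and C1qb were listed at 0 as well. The summed level of the 7 adrenal cortex markers ran from 0 to 474 RPKM and from 0 to 24 RPKM in Sox9-high cells, against 0 to 308 and 0 to 478 RPKM in Sox9-negative cells, with medians of 0 in all 4. The summed level of 13 endothelial markers ran from 0 to 35.5 and 0 to 43.4 RPKM in Sox9-high cells, against 0 to 60.9 and 0 to 1552 RPKM in Sox9-negative cells. Smooth muscle and peritubular markers were common, with medians of 163 and 131 RPKM summed over 8 markers in Sox9-high cells, against 144 and 66.9 RPKM in Sox9-negative cells. The sum did not stand for each marker: of 4 tested, 1 was positive and 3 were negative in the fit, with a median difference of -1.96 and none called. Neural crest and Schwann precursor markers summed to at most 57.8 and 57.7 RPKM in Sox9-high cells, against 630 and 650 RPKM in Sox9-negative cells, with medians of 0 in all 4.

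The switch genes upstream and downstream of Sox9 come next, by role, and none of them passed the threshold. Differences of genes at or near 0 in 1 class depend on the added 1 RPKM and are no bound on a fold. Sry averaged 15.7 and 17.7 RPKM in Sox9-high cells, against 0 and 0.12 RPKM in Sox9-negative cells (4.06 ± 0.71, adjusted p = 0.183). It was at 1 RPKM or more in 3 of 17 and 4 of 14 Sox9-high cells, in 2 cells between the classes, and in 0 of 13 and 1 of 25 Sox9-negative cells. Most cells with high Sox9 thus had Sry below 1 RPKM, in files where 67.6% of all E11.5 values are 0. The 1 Sox9-negative cell with Sry held 2.41 RPKM of it, and the highest Sox9-high cells held 142 and 120 RPKM.

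Fgf9, the secreted factor that maintains Sox9, averaged 23.4 and 35.6 RPKM in Sox9-high cells, against 0 and 0.086 RPKM in Sox9-negative cells (4.84 ± 0.84, adjusted p = 0.183). It was found in 11 of 31 Sox9-high cells and in 1 of 38 Sox9-negative cells. A single cell gave 74.5% of the Sox9-high total of the first capture. Of 13 tested genes of FGF and ERK signalling, 4 were negative and 2 positive in both captures, against 2645 and 2650 of the 9667 genes tested. The feedback gene Dusp6 averaged 135 and 24.4 RPKM in Sox9-high cells, against 110 and 59.5 RPKM in Sox9-negative cells, and Spry2 averaged 45.9 and 15.1 RPKM, against 74.6 and 52 RPKM.

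Of 21 tested factors and cofactors of testis determination, 11 had a positive difference, the median was 0.00, and none passed. Gata4, a zinc-finger factor needed for Sry, averaged 77.2 and 114.05 RPKM in Sox9-high cells, against 11.2 and 65.2 RPKM in Sox9-negative cells (1.74 ± 0.52, adjusted p = 0.536). Gadd45g, needed for timely Sry expression, averaged 92 and 240 RPKM, against 5.61 and 55.1 RPKM in Sox9-negative cells (2.96 ± 0.68, adjusted p = 0.413). Wt1, a zinc-finger factor of the early gonad, averaged 154 and 219 RPKM in Sox9-high cells, against 124 and 152 RPKM in Sox9-negative cells (0.41 ± 0.51, adjusted p = 0.925), a small positive difference in both captures (0.31 and 0.52). Nr0b1 (Dax1) averaged 9.51 and 90.3 RPKM in Sox9-high cells, against 8.74 and 11 RPKM in Sox9-negative cells, so the captures differed (1.52 ± 0.96, adjusted p = 0.804). Dmrt1, which keeps the male state in later Sertoli cells, averaged 8.03 and 12.7 RPKM, against 0 and 1.17 RPKM in Sox9-negative cells (2.92 ± 0.91, adjusted p = 0.545).

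Other Sox genes gave little. Sox8 was listed at 0 in every E11.5 cell, and Sox10 was found in 4 Sox9-high cells and in no Sox9-negative cell. Sox4 averaged 72.2 and 57.9 RPKM in Sox9-high cells, against 63.6 and 63.7 RPKM in Sox9-negative cells, and Sox11 averaged 40.8 and 24.3 RPKM, against 77.8 and 70.9 RPKM. The captures lay on opposite sides for Wnt4 and Rspo1 of the ovarian path. Wnt4 averaged 5.83 and 14.7 RPKM in Sox9-high cells, against 9.22 and 9.76 RPKM in Sox9-negative cells. Rspo1 averaged 0.095 and 9.14 RPKM, against 24.9 and 2.51 RPKM. Of 11 tested ovarian-path and beta-catenin genes, 3 were positive and 2 negative in both captures, and none was called. Over all 9667 genes tested, 2650 were positive and 2645 negative in both.

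Genes of the early and later Sertoli list had the highest median difference of the pathway lists, although none of the 19 tested members was called. Their median difference was 2.68 on the log2 scale, against 0.01 over all genes tested. Of these, 17 of 19 were positive in the fit and 14 were positive in both captures, against 4866 and 2650 of the 9667 genes tested. The list was chosen with earlier results of these data known, so its direction is no independent evidence.

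Among the members, Mmd2, a membrane protein gene, averaged 33.2 and 59.7 RPKM in Sox9-high cells, against 1.42 and 0.016 RPKM in Sox9-negative cells (4.86 ± 0.79, adjusted p = 0.142). Clu, which encodes clusterin, averaged 67 and 62.7 RPKM, against 12.2 and 0.030 RPKM in Sox9-negative cells (4.16 ± 0.88, adjusted p = 0.333). Vnn1, a pantetheinase gene of the early testis, averaged 66.7 and 42.7 RPKM, against 0 and 19.8 RPKM in Sox9-negative cells (3.57 ± 1.07, adjusted p = 0.536). Each of the 3 was found in a minority of Sox9-high cells. The product genes of mature Sertoli cells were barely present. Amh was listed at 0 in every E11.5 cell, Dhh was found in 1 Sox9-high cell, and Ptgds, which makes prostaglandin D2, was found in 4 of 31 Sox9-high cells and in 0 of 38 Sox9-negative cells (3.81 ± 0.89, adjusted p = 0.413). Of the 2 members negative in both captures 1 was Trf, the transferrin gene, at 0.041 and 0.017 RPKM in Sox9-high cells, against 6.28 and 9.08 RPKM in Sox9-negative cells.

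**Figure D3:**
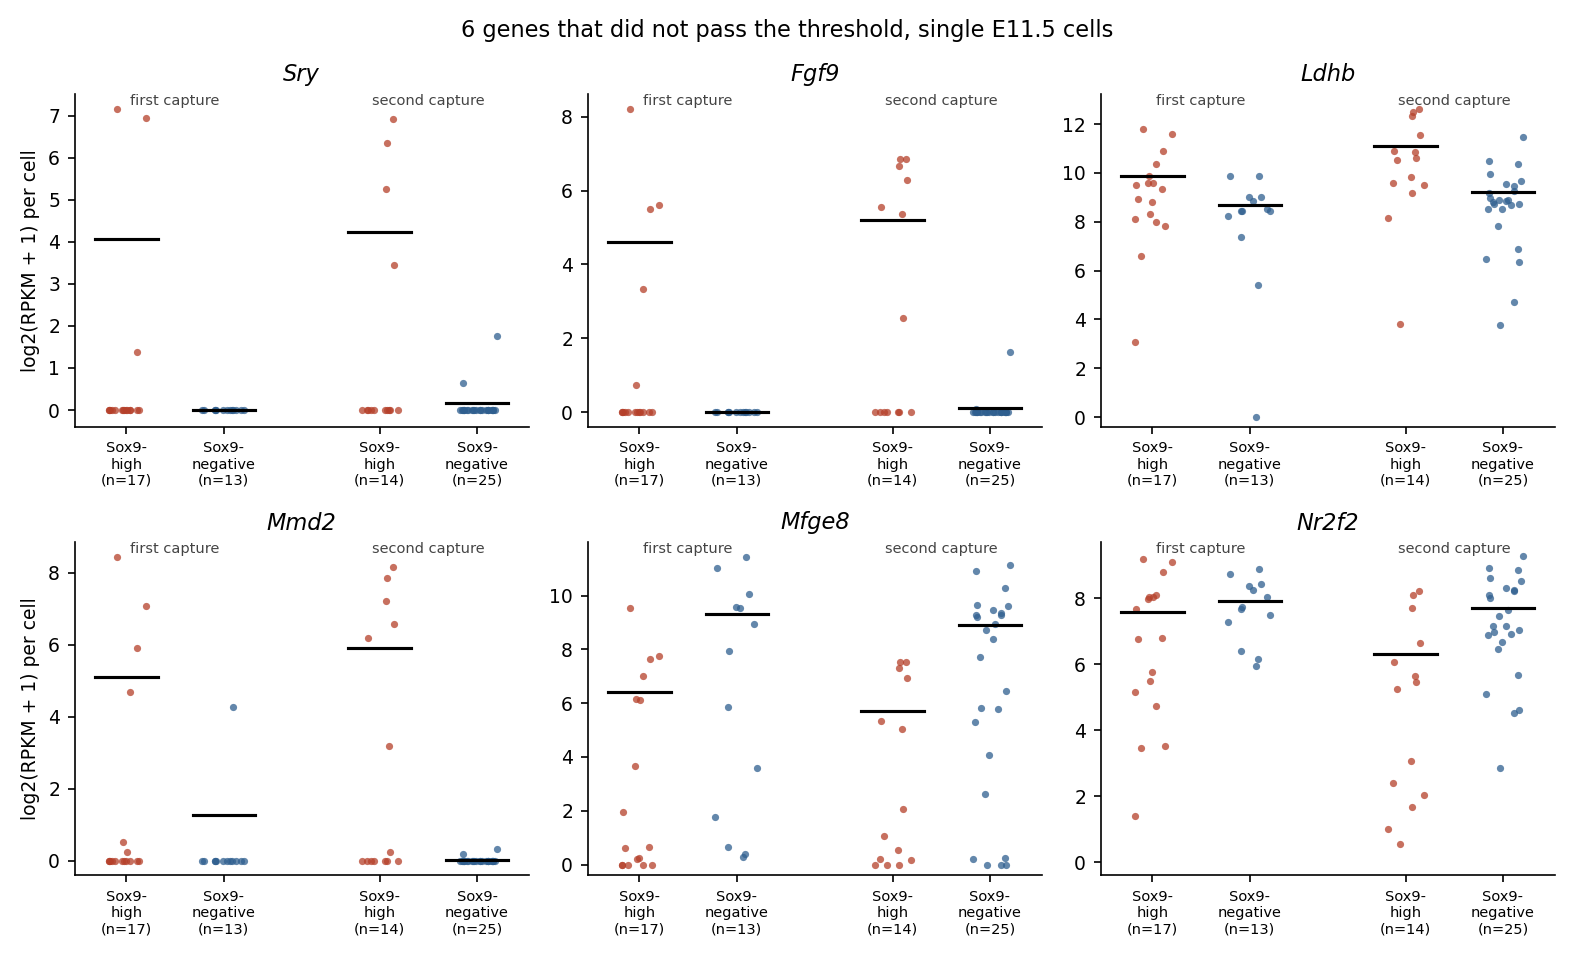
Each point is 1 E11.5 cell on a log2(RPKM + 1) axis, Sox9-high left and Sox9-negative right in each capture, for 6 genes that did not pass; bars are log2(mean RPKM + 1). Sry and Fgf9 are at 1 RPKM or more in 7 and 11 of 31 Sox9-high cells, against 1 and 1 of 38 Sox9-negative cells, and Ldhb and Nr2f2 are present in nearly all cells of both classes.

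Several other genes came close to the threshold without passing. Ldhb, a lactate dehydrogenase subunit, was detected in 31 of 31 Sox9-high cells and averaged 928 and 2171 RPKM there, against 406 and 598 RPKM in Sox9-negative cells (1.52 ± 0.22, adjusted p = 0.0901). Ppt1, a lysosomal thioesterase, averaged 165 and 188 RPKM in Sox9-high cells, against 27.1 and 33.5 RPKM in Sox9-negative cells (2.51 ± 0.35, adjusted p = 0.078). Gstm1 and Gstm2 encode glutathione transferases of a family with near-identical copies, so reads could be split between them. Gstm1 averaged 786 and 1254 RPKM in Sox9-high cells, against 23.8 and 180 RPKM in Sox9-negative cells (3.89 ± 0.55, adjusted p = 0.0788). Kctd14, a gene of supporting cell precursors, averaged 280 and 1258 RPKM, against 2.10 and 149 RPKM in Sox9-negative cells (4.79 ± 0.77, adjusted p = 0.142). Gatm, an enzyme of creatine synthesis, averaged 56.8 and 40.5 RPKM, against 0.026 and 0.36 RPKM in Sox9-negative cells (5.37 ± 0.94, adjusted p = 0.183).

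The AMH, inhibin and activin list had no lean towards Sox9-high cells: 5 of 16 tested genes were positive and 11 negative, 3 were positive and 5 negative in both captures, the median was -0.43, and none was called. Of 9 tested hedgehog genes 2 were positive, none in both captures, with a median of -0.37 and none called. Over all 9667 genes tested, 4866 were positive, and 2650 were positive and 2645 negative in both captures. Within the first list Inha and Inhbb, inhibin subunit genes positive in both captures, averaged 114.1 and 46.4 RPKM and 8.33 and 27.4 RPKM in Sox9-high cells, against 9.24 and 23 RPKM and 0.0093 and 3.01 RPKM in Sox9-negative cells (adjusted p = 0.515 for both). Spp1, which encodes osteopontin, was found in 14 of 31 Sox9-high cells and was listed at 0 in all 38 Sox9-negative cells; it averaged 9.79 and 94.8 RPKM in Sox9-high cells (adjusted p = 0.419). Spp1, Gatm, Mmd2, Clu and the other genes outside the naming rule given under processing were chosen after their values were seen.

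All 9 tested genes of the steroidogenesis list were positive in the fit and 7 in both captures, against 4866 and 2650 of the 9667 genes tested. The median was 1.33 against 0.01 over all genes, and none was called. Genes near 0 in Sox9-negative cells, Cyp11a1 among them, could pass the 1 RPKM filter only through other cells. Their difference could hardly be negative, so the count is a description. The same holds for such genes in the other lists. Cyp11a1, the enzyme of the first step of steroid synthesis, averaged 21.5 and 63.5 RPKM in Sox9-high cells, against 0 and 0.015 RPKM in Sox9-negative cells (5.24 ± 1.11, adjusted p = 0.333). It was found in 8 of 31 Sox9-high cells and 0 of 38 Sox9-negative cells, and 1 cell held 92.6% of the Sox9-high total in the first capture. Star, the cholesterol carrier, averaged 68 and 14 RPKM in Sox9-high cells, against 2.51 and 6.54 RPKM in Sox9-negative cells (2.65 ± 0.93, adjusted p = 0.584). Markers of the adrenal cortex, which shares these enzymes, are given above. Mc2r, the adrenal corticotropin receptor, averaged 94.8 and 0 RPKM in Sox9-high cells, against 47.7 and 31 RPKM in Sox9-negative cells. The captures thus lay on opposite sides for Mc2r, and a part of adrenal cells in the steroid values was not tested.

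Of the genes of glycogen and glucose use, 18 of 22 tested were positive, 13 in both captures, with a median of 0.58 and none called. Over all 9667 genes tested, 4866 were positive, 2650 in both captures. This list too was chosen with earlier results of these data known, so its direction is no independent evidence. Aldoa, a glycolytic aldolase, averaged 663 and 761 RPKM in Sox9-high cells, against 308 and 365 RPKM in Sox9-negative cells (1.08 ± 0.27, adjusted p = 0.44). Ribosomal protein genes had a median of -0.02 and respiratory chain genes one of -0.06, near that of all genes. Medians were -0.18 for 27 DNA replication genes and -0.04 for 30 mitosis genes.

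On the lower side the interstitial and steroidogenic progenitor list stood out in its count. Of its 17 tested genes, 13 were negative in both captures (2645 of 9667 over all genes), with a median of -1.02, and none was called. Like the Sertoli list, it was chosen with earlier results of these data known, so its direction is no independent evidence. Nr2f2, an orphan receptor of interstitial cells, averaged 190 and 78.3 RPKM in Sox9-high cells, against 240 and 210 RPKM in Sox9-negative cells (-0.87 ± 0.41, adjusted p = 0.703). It was present in 29 of 31 Sox9-high and 38 of 38 Sox9-negative cells. Nr2f1 averaged 20.3 and 4.74 RPKM in Sox9-high cells, against 32.2 and 15.2 RPKM in Sox9-negative cells, and Itga8, an integrin subunit, averaged 1.90 and 2.82 RPKM, against 48.2 and 15.6 RPKM (adjusted p = 0.584). Lhx9, a factor of the gonadal surface and progenitors, averaged 12.1 and 17.3 RPKM, against 40.6 and 66.8 RPKM in Sox9-negative cells (-1.78 ± 0.66, adjusted p = 0.606).

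The gene nearest to the threshold on the lower side was Mfge8, a secreted glycoprotein that bridges dying cells to phagocytes. It averaged 84.5 and 51.6 RPKM in Sox9-high cells, against 629 and 477 RPKM in Sox9-negative cells (-3.03 ± 0.46, adjusted p = 0.108). It was found in 16 of 31 Sox9-high and 30 of 38 Sox9-negative cells. Next came genes found in few cells: Tm4sf5, a tetraspanning membrane protein, in 1 of 31 against 11 of 38; Mipep, a mitochondrial peptidase, in 1 of 31 against 10 of 38; and Lpar4, a lysophosphatidic acid receptor, in 2 of 31 against 14 of 38. Their adjusted p-values ran from 0.276 for Tm4sf5 to 0.413 for Lpar4. Aldh1a2, the retinoic acid enzyme of coelomic epithelium and mesonephros, averaged 29.2 and 37.7 RPKM in Sox9-high cells, against 203 and 126 RPKM in Sox9-negative cells (-2.24 ± 0.66, adjusted p = 0.528), the opposite side from Aldh1a1. Acta2, smooth muscle actin, averaged 0.044 and 0.71 RPKM in Sox9-high cells, against 28.6 and 22.1 RPKM in Sox9-negative cells (adjusted p = 0.44).

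**Figure D4:**
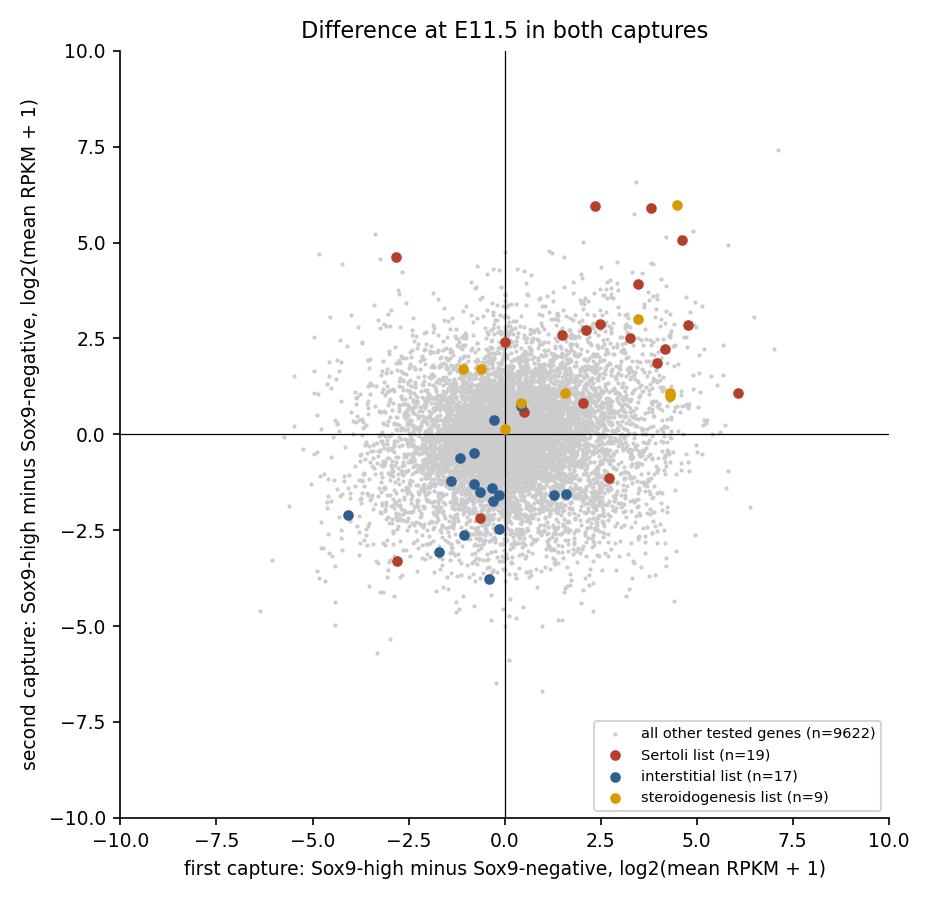
Each point is 1 of 9667 tested genes, with its Sox9-high minus Sox9-negative difference in the first capture across and in the second capture up, both on log2(mean RPKM + 1). Red points (Sertoli list) lie mostly in the upper right, 14 of 19 positive in both captures, and blue points (interstitial list) mostly in the lower left, 13 of 17 negative in both; orange points are the steroidogenesis list, 7 of 9 positive in both.

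The immediate early gene Egr1 differed between captures: it averaged 288 and 0.19 RPKM in Sox9-high cells of the first and second capture, against 336 and 106.3 RPKM in Sox9-negative cells (-3.36 ± 1.08, adjusted p = 0.558). Fos averaged 603 and 28.3 RPKM in Sox9-high cells, against 238 and 117.5 RPKM in Sox9-negative cells, so the captures lay on opposite sides. The median cell summed to 1401 and 240 RPKM over the 18 immediate early and stress genes in the Sox9-high class, against 1074 and 358 RPKM in the Sox9-negative class. The part of these genes in the other differences was not tested.

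The same split of cells was made at the other stages to set the E11.5 difference beside those of the later testis. No gene passed for E11.5 minus the mean of E12.5 and E16.5, whose libraries have the same labelled depth (limma; 0% of 9667; 819 at an unadjusted p under 0.05, smallest adjusted p 0.25). After opposite signs at E11.5 and E16.5 had been seen, 4 more contrasts set E11.5 against each other stage alone. Only that with E16.5 had calls, 17 genes or 0.176% of those tested. Those with E10.5, E12.5 and then E13.5 had none (0% each; 443, 643 and 350 at an unadjusted p under 0.05). E10.5 and E13.5 also differ from E11.5 in labelled depth, at 25 M against 10 M reads. The p-values were adjusted within each contrast and not over the 4. The E16.5 contrast had no more than 1 call when either E11.5 or either E13.5 capture was dropped, which leaves 2 residual degrees of freedom. Dropping an E13.5 capture does not alter these differences, and all 17 kept their sign in each of the 18 alternatives, for example between 3.85 and 7.52 for Efna5 and between 2.38 and 13.75 for Cyp11a1. The E12.5 value rests on 1 capture, because the second E12.5 capture had 3 Sox9-negative cells, under the minimum of 5.

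Steroid genes were on opposite sides at the 2 stages. Cyp11a1 averaged 0.32 and 11.8 RPKM in Sox9-high cells of the E16.5 captures, against 479 and 611 RPKM in Sox9-negative cells, so its difference was 5.24 at E11.5 and -7.04 at E16.5 (12.28 ± 1.57 between stages, adjusted p = 0.033). Hsd3b1, which makes progesterone-type steroids, averaged 35.2 and 7.11 RPKM in E11.5 Sox9-high cells, against 2.25 and 0.0094 RPKM in Sox9-negative cells. At E16.5 it averaged 14.1 and 1.13 RPKM in Sox9-high cells, against 528 and 533 RPKM in Sox9-negative cells (9.79 ± 1.40 between stages, adjusted p = 0.0443). Star differed the same way (2.65 at E11.5 and -3.37 at E16.5) and did not pass (adjusted p = 0.172). Cyp11a1 was near 0 in E11.5 Sox9-negative cells and could pass the 1 RPKM filter only through other cells. Its E11.5 difference could thus hardly be negative, as could that of Hsd3b1 in the second capture. The contrast was also added after these signs had been seen, so its p-values are no independent evidence of a change of side.

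Smoc2, a secreted matricellular protein, averaged 19.1 and 33.7 RPKM in E11.5 Sox9-high cells, against 0.014 and 4.96 RPKM in Sox9-negative cells. At E16.5 it averaged 0.084 and 3.31 RPKM in Sox9-high cells, against 56 and 147 RPKM in Sox9-negative cells (adjusted p = 0.033). The filter limit given for Cyp11a1 holds for Smoc2 in the first E11.5 capture. Gchfr, which regulates tetrahydrobiopterin synthesis, went the other way: 6.96 and 2.11 RPKM in E11.5 Sox9-high cells, against 51.8 and 39.7 RPKM in Sox9-negative cells, and 175 and 82.1 RPKM in E16.5 Sox9-high cells, against 10.4 and 0 RPKM in Sox9-negative cells (adjusted p = 0.0443). Gstm2 was higher in Sox9-high cells at both stages and more so at E16.5, with differences of 2.16 and 5.13 (adjusted p = 0.0443). Cdkn1c, a cell cycle inhibitor, averaged 439 and 458 RPKM in E11.5 Sox9-high cells, against 230 and 442 RPKM in Sox9-negative cells; at E16.5 it averaged 0.015 and 1.49 RPKM in Sox9-high cells, against 78.8 and 44 RPKM in Sox9-negative cells (adjusted p = 0.046).

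Fgf9 had a difference of -1.28 at E10.5, 4.84 at E11.5, 0.32 at E12.5, -0.06 at E13.5 and 0.07 at E16.5, and the difference between E11.5 and E16.5 did not pass (limma adjusted p = 0.221). At E10.5 it averaged 3.80 RPKM in Sox9-high cells, against 10.7 RPKM in Sox9-negative cells. At E12.5 both classes had it, with 31.3 RPKM in Sox9-high cells, against 24.9 RPKM in Sox9-negative cells. At E16.5 it was nearly absent from both, with 0.094 and 0.0066 RPKM in Sox9-high cells, against 0 and 0.0046 RPKM in Sox9-negative cells.

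The 4 genes called at E11.5 did not share 1 course over the stages. Akr1cl had differences of 2.20 at E10.5, 3.51 at E11.5, 5.99 at E12.5, 2.04 at E13.5 and 1.31 at E16.5. Aldh1a1 had 0.06, 4.15, 6.70, 2.91 and 3.01 at the same stages. Rnf181 had differences of -1.19, 3.22, 2.63, 2.18 and 1.40, and eGFP had -0.48, 1.52, 2.14, 1.09 and 0.61. All 4 were positive at each stage from E11.5 on. Akr1cl, Aldh1a1 and eGFP had their highest value at E12.5, where 1 capture entered the fit, and Rnf181 at E11.5. Of the 4, Rnf181 and eGFP were negative at E10.5, also from 1 capture, and for both the difference between E11.5 and E10.5 did not pass (limma adjusted p = 0.162 for each).

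**Figure D5:**
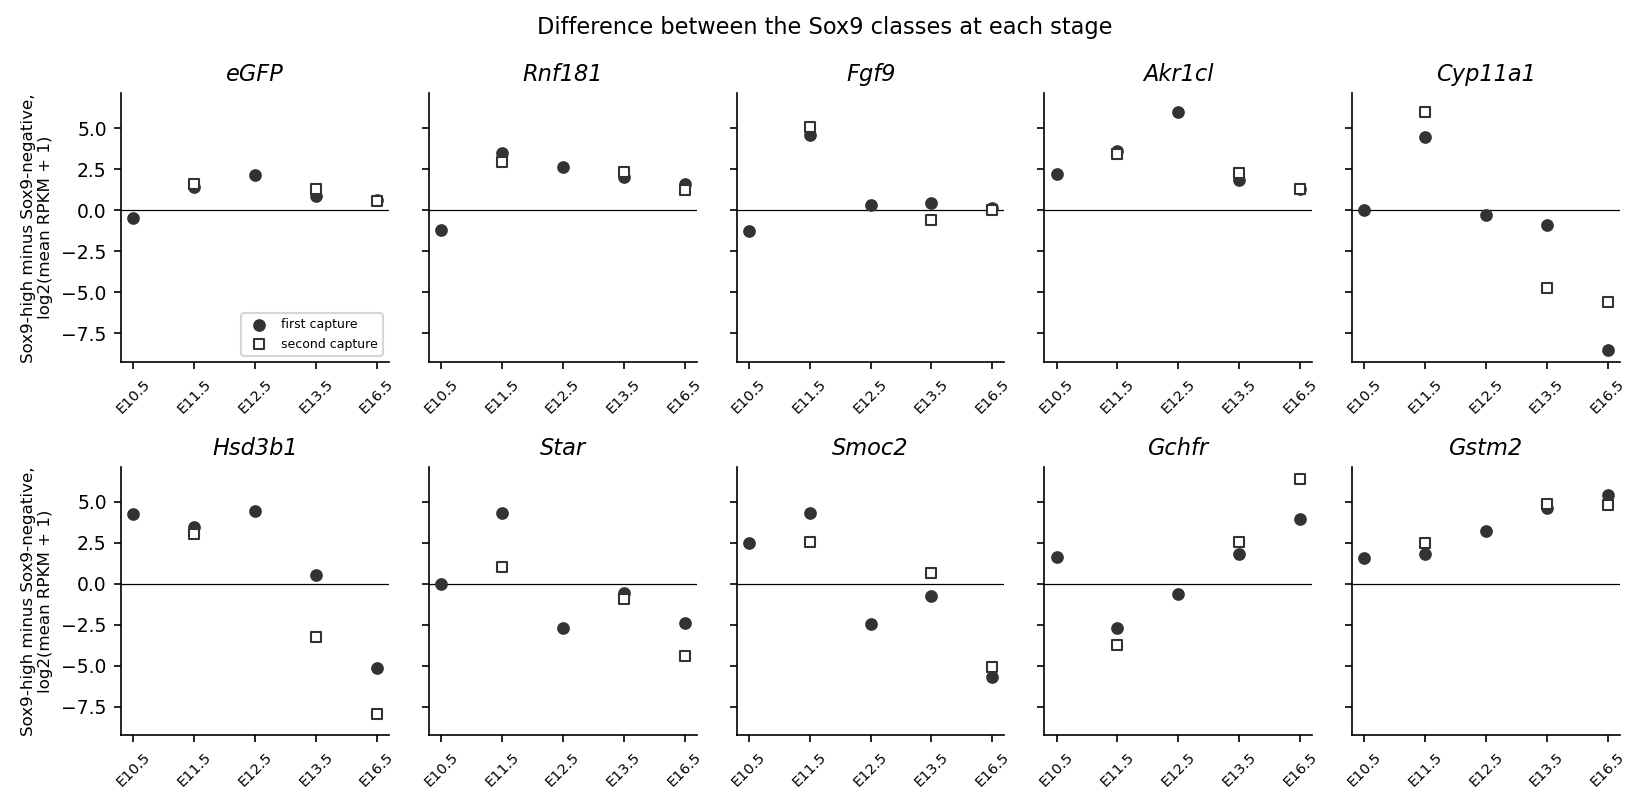
Sox9-high minus Sox9-negative difference, on log2(mean RPKM + 1), of 10 genes at each stage, 1 point per capture (filled circles first, open squares second); E10.5 and E12.5 have 1 point. Cyp11a1, Hsd3b1, Star and Smoc2 are positive in both E11.5 captures and negative in both E16.5 captures, and Gchfr is the reverse.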

How the data were processed

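RPKM values per cell were deposited by the authors, with GRCm38.p3 and mm10 as builds, per the submitters' processing notes; other steps are not given. That they are RPKM was inferred: the smallest step of low genes in a cell scaled with GENCODE M21 exonic length. A cell needed 3000 detected genes (3 fell short, none at E11.5). Mean RPKM was taken per class and capture, needing 5 cells in each class (8 captures), and log2(mean + 1) went into limma 3.58.1 (trend and robust options), with capture as a block and class within stage, which left 3 residual degrees of freedom. Tested genes averaged 1 RPKM or more in both E11.5 captures. Both classes come from each capture, so the block pairs them by design. Named were called genes, the smallest p-values up to 10 each way (5 RPKM or more in the higher class), the 2 highest members of each list, and fixed markers; others were chosen after their values were seen, and some that the rule names are not reported here. Members and lists were chosen with earlier results of these data known. The fit was tested on simulated data. With 2 captures an exact paired test cannot go below p = 0.5.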

Additional observations from a re-analysis of the deposited data

Results flagged for a closer look

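The difference between Sox9-high and Sox9-negative cells was not the same at E11.5 and at E16.5 for 17 genes, by limma's test of the stage difference itself, 1 of 4 contrasts added after the values were seen, with p adjusted within it and not over the 4. The values below are the E11.5 difference minus the E16.5 difference on the log2 scale, positive in 14 genes and negative in 3. The E11.5 difference was the higher one for Cyp11a1 (12.28), Hsd3b1 (9.79), Sct (9.25), Smoc2 (8.83), Tubb6 (8.55), Olfml3 (7.89), Ifitm1 (7.35), Efna5 (6.88), Cdkn1c (5.73), Mfap2 (4.92), Cd24a (4.37), Itm2a (4.23), Peg3 (3.86) and Sepw1 (3.85). The E11.5 difference was the lower one for Gchfr (-8.38), Gstm2 (-2.96) and the predicted gene Gm6665 (-2.96). None of the 17 passed at E11.5 alone. The filter limit given above for Cyp11a1, Hsd3b1 and Smoc2 holds for these values as well. Efna5, an ephrin ligand, averaged 67.4 and 33.4 RPKM in E11.5 Sox9-high cells, against 106.4 and 108.9 RPKM in Sox9-negative cells, and 0.19 and 0.058 RPKM in E16.5 Sox9-high cells, against 202 and 433 RPKM in Sox9-negative cells. Sct, the secretin gene, was found in 3 of 31 Sox9-high cells at E11.5, and Tubb6, a beta-tubulin, in 4 of 31 Sox9-high and 3 of 38 Sox9-negative cells, so both E11.5 values rest on few cells.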

How the results depend on the processing

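Of 129 named genes followed here with a tested E11.5 difference, 29 had another sign or a value of 0 in at least 1 of 19 alternatives; the 4 called genes were not among them. Akr1cl passed in 11 alternatives, Aldh1a1 in 7, Rnf181 in 11 and eGFP in 10. The 17 differences from E16.5 kept their sign wherever they were fitted.

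The 4 calls at E11.5 became 8 with the mean of log2 values, 8 with the top 25% by Sox9, 13 with E11.5 captures only, and 0 without cells holding other cell types' markers, without the highest cell of each class (added after the data were seen) or with no filter on low values. With no replicate block, which drops the pairing by capture, they became 7, and leaving out 1 capture gave 0 to 12. The 0 calls against the mean of E12.5 and E16.5 became 5 with the mean of log2 values and 1 with the top 25%, and were 0 to 1 with 1 capture left out; without the first E12.5 capture this could not be fitted.

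Against E16.5, where each alternative was added after the data were seen, the 14 higher and 3 lower calls became 59 and 56 with the mean of log2 values, 9 and 3 with a pseudocount of 5 RPKM, 14 and 1 with the top 25% or with no replicate block, 1 and 0 with Sox9 at exactly 0 or without cells holding other markers, 6 and 1 without the highest cell, and 0 and 0 with no filter. Leaving out 1 capture gave 0 to 31 higher and 0 to 13 lower.

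Reversed E11.5 differences, none called, were as follows. With Sox9 at exactly 0 they were -0.026 for Sox4, 0.38 for Ptger4, 0.47 for Bub3, -0.0750 for Tfap2c, 1.04 for Pax8 and 0.72 for Wnt4. The mean of log2 values gave -0.15 for Sox6, 0.0103 for Znrf3, -0.0199 for Tfap2c, 0.23 for Wnt4 and 0.24 for Slc2a1. Wnt4 was 0.0101 with median-ratio scaling and 0.012 with the pseudocount of 5. The top 25% gave -0.79 for Hapln1, -0.25 for Sox6, 0.0301 for Fos, -1.92 for Wfdc2 and 0.0031 for Wnt4. Without cells holding other markers they were -0.14 for Sox4, 0.30 for Egfl7, 2.31 for Pax8, 0.62 for Wnt4, -0.67 for Pdgfra and -1.43 for Tubb6. Without the highest cell they were 0.21 for Znrf3, -0.44 for Tfap2c, 0.30 for Wnt4 and -0.44 for Krt19, and Emcn was at 0. Without the 25% of cells with the fewest genes they were -0.45 for Sox6, 0.074 for Znrf3, -0.083 for Por, 0.11 for Ndufa4, 1.15 for Twist1, 0.027 for Itm2a and -0.58 for Tubb6. With 1 capture left out the ranges were -0.14 to 0.18 for Sox4, -1.26 to 0.30 for Dusp6, -0.21 to 0.83 for Hapln1, -1.08 to 1.57 for Sox6, -0.39 to 0.22 for Znrf3, -0.60 to 1.71 for Cyb5a, -1.61 to 0.016 for Fn1, -2.55 to 1.51 for Btg2, -2.02 to 1.34 for Fos, -0.64 to 0.43 for Ndufa4, -2.11 to 2.56 for Tfap2c, -2.13 to 3.42 for Wfdc2, -5.00 to 0.98 for Mc2r, -0.58 to 0.55 for Wnt4, -4.56 to 1.53 for Rspo1, -2.83 to 4.64 for Cst9, -1.56 to 1.60 for Pdgfra, -0.31 to 1.40 for Runx1, -0.88 to 0.059 for Itm2a and -0.48 to 1.36 for Tubb6. The cause was not tested. Precision rests on 2 E11.5 captures and on classes of 13 to 25 cells.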
